A study of Pinus pinaster with 12 samples.

Results

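Of the 4966 transcripts of maritime pine roots that carried an m6A peak both after ammonium and after water, 386 had 2 or more peaks in at least 1 of the treatments and shared every peak position with the other. Each of their peaks overlapped a peak of the other treatment by at least 1 base. They were chosen from the 613 transcripts on both peak lists with several peaks in a list, and from 7077 transcripts with a peak in either treatment. The other 227 of the 613 had at least 1 peak with no counterpart, 204 of them exactly 1. A further 4343 transcripts had a single peak in each treatment that overlapped, and 10 had a single peak in each that did not. The count table held 253670 transcript IDs, so the 386 are a small fraction of the transcripts measured. Peak positions chose these transcripts, so peak numbers, positions and fold enrichments are described here and not tested.

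N6-methyladenosine (m6A) is a methylated base of messenger RNA. In plants and animals it is placed by a methyltransferase complex, removed by demethylases of the ALKBH family and bound by reader proteins with a YTH domain. In plant mRNA it is known mainly from the region of the stop codon and the 3′ untranslated region. Known effects include changes of RNA stability, translation and the choice of the polyadenylation site. Ammonium is a nitrogen source for conifer roots, where it is taken up by AMT transporters and assimilated by glutamine synthetase. Antibody methods such as the one used here enrich RNA fragments, so a peak marks a stretch that holds 1 or more modified bases rather than a base.

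Roots came from Pinus pinaster seedlings aged 1 month (provenance Segura-Alcaraz), collected 24 h after irrigation with 80 mL of 3 mM ammonium chloride, or with 80 mL of water in the controls. All seedlings had been watered with distilled water and acclimated for 3 days, and the experiment was run 3 independent times. Fragmented polyadenylated RNA was precipitated with an antibody against m6A (the IP) or kept as input, giving 3 libraries each of IP with ammonium, IP with water, input with ammonium and input with water. How many seedlings made up a sample is not given in the sources used here. No file links a transcript ID to a gene name, so the members are given by ID, their functions are not named, and the root label could not be checked against marker genes. Positions count from 1 at the 5′ end of the transcript ID as the peak lists give it.

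The IP libraries held 65539363 to 73185176 counts with ammonium and 57945305 to 63522543 with water, and the inputs held 69030249 to 81534388 counts. Across transcripts, the log2 levels of replicate 1 of the water IP correlated with those of the 6 inputs at a mean r of 0.662, those of replicate 2 of the water IP at 0.422, and those of the other 4 IP libraries at 0.528 to 0.554. Both of these water IP libraries thus stood apart from the rest, on opposite sides, and the main IP values are given with and without them. For the 386 transcripts alone, the mean r was 0.777 in replicate 1 and 0.727 in replicate 2 of the water IP, within or close to the 0.743 to 0.80 of the others.

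Most members had the same number of peaks after both treatments. There were 228 transcripts with 2 peaks in each list, 8 with 3 in each and 2 with 4 in each. In 97 transcripts 1 ammonium peak stood against 2 water peaks, and the reverse was seen in 29. The remaining 22 had other unequal numbers, up to 5 against 3. In all, the members carried 700 peaks in the ammonium list and 772 in the water list.

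Not all of these transcripts held several separate places of enrichment. Peaks that overlapped across the lists were joined into sites, which gave 659 sites on the 386 transcripts. At 509 of these, 1 ammonium peak matched 1 water peak. At 109 sites 1 ammonium peak spanned several water peaks, at 40 sites 1 water peak spanned several ammonium peaks, and at 1 site the peaks were staggered. As a result, 128 transcripts had a single site, which was unbroken with ammonium in 99 of them and unbroken with water in 29. The other 258 (66.8%) had at least 2 separate sites, of which 245 had 2, 11 had 3 and 2 had 4. By position, the label of several conserved peaks therefore applies to these 258, and in the 128 the several peaks are in the list where the site was divided. The ammonium list, in which sites were more often unbroken, came from the deeper IP libraries, and single shared peaks were also more often wider there (1266 wider in ammonium, 736 wider in water, 2341 of equal width). Depth and treatment cannot be told apart in these lists.

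The gaps that divided a site in 1 list were short. The 112 gaps bridged by an ammonium peak had a median of 98 bases (90 to 389), and the 40 gaps bridged by a water peak also had a median of 98 bases (93 to 148). Peak edges in the lists lay in steps: 140 neighbouring starts on the same transcript differed by 60 bases or fewer, and these differences ran from 46 to 50 bases. Equal edges in both lists are thus equal within a step of about 50 bases. The listed p-values, which are the authors' own, were often shared by neighbouring peaks of a transcript. Leaving out pairs with both p listed as 0, the 2 neighbours had the same listed p in 154 of 261 cases (59.0%) in the ammonium list and in 218 of 363 (60.1%) in the water list. Neighbours with the same p lay a median of 99 bases apart in each list and at most 587 and 593 bases apart, whereas those with different p lay a median of 193 bases apart with ammonium and 194 with water. Neighbours with different listed p in at least 1 list were found in 167 of the 386 transcripts. Whether neighbours with the same listed p were called as separate peaks or are parts of 1 called region cannot be told from the lists, so the number of separate peaks could be lower than listed.

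The 6 transcripts with the most listed peaks show how sites were kept and divided. Transcript pp_83564 had 4 peaks in each list, and 3 of them had the same start and end in both (151 to 250, 500 to 649 and 1148 to 1247). Its folds were low: 1.67, 2.25, 3.20 and 3.00 with ammonium, against 2.33, 3.60, 3.50 and 2.67 with water. Transcript pp_120604 also had 4 matched peaks, the second of which was the strongest in both lists, at 10.0-fold with ammonium (bases 746 to 1342) and 8.91-fold with water (bases 846 to 1243). These 2 are the transcripts with 4 separate sites.

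The longest of the 6 in peak span was pp_202250, with 5 ammonium and 3 water peaks over 2992 bases. Its first water peak (bases 1097 to 2842, 76.3-fold) covered the first 2 ammonium peaks (1147 to 2244 at 62.7-fold and 2393 to 2792 at 11.3-fold). The last water peak (3639 to 4088, 8.71-fold) likewise covered 2 weak ammonium peaks of 2.00- and 3.00-fold. Transcript pp_145127 had an identical peak in both lists at bases 743 to 1040, listed at 24.3-fold each time, and a 24.4-fold water peak downstream (2078 to 2820) that stood against ammonium peaks of 14.0- and 4.33-fold. In pp_205657 a water peak at bases 994 to 1342 (6.5-fold) stood against ammonium peaks of 4.50- and 5.83-fold. In pp_106219 the division ran the other way: an ammonium peak at bases 1226 to 1569 (7.33-fold) stood against water peaks of 2.75- and 4.00-fold.

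**Figure D1:**
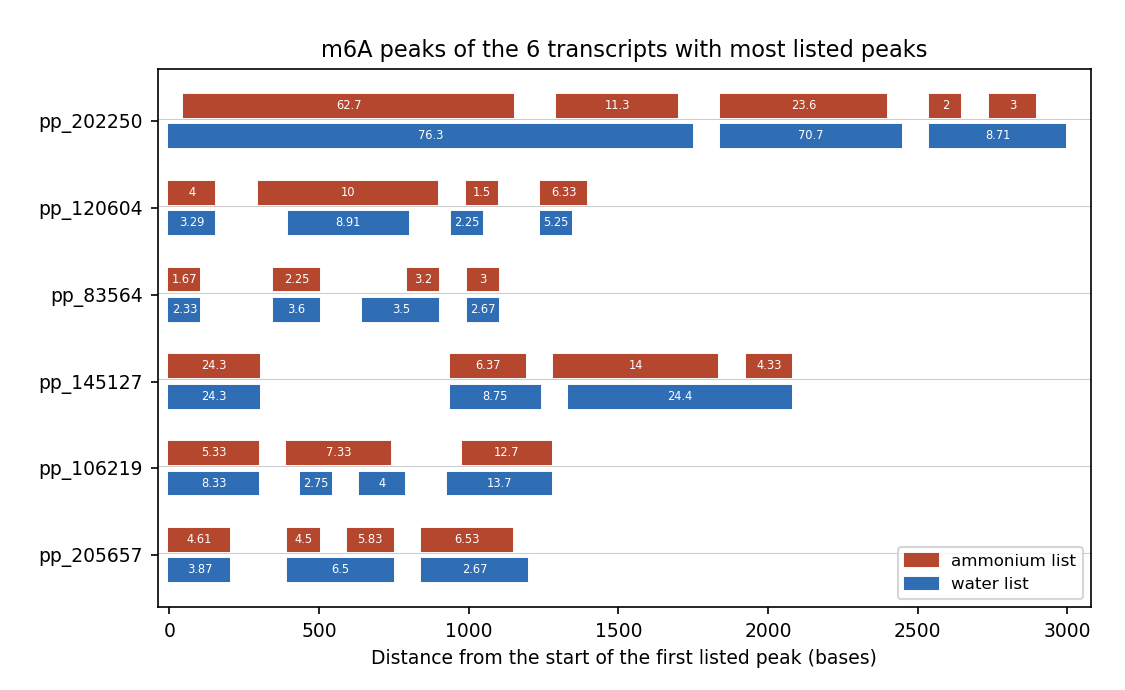
Listed peaks of the 6 transcripts with the most peaks, drawn to scale as bases from the first listed peak, with ammonium peaks above water peaks and the authors' fold enrichment in each box. In pp_83564 and pp_120604 each ammonium peak has 1 water peak under it, while in pp_202250 the first and the last water peak each lie under 2 ammonium peaks.

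The members' peaks were close together, and the first of them began earlier on the transcript ID than single shared peaks did. The median gap between neighbouring peaks was 143.5 bases with ammonium and 99 with water, and 76.4% of the gaps with ammonium and 77.2% of those with water were under 200 bases. In several-peak transcripts that failed the rule, 67.5% of the gaps with ammonium and 53.9% of those with water were under 200 bases. From the first to the last peak base the members spanned a median of 548.5 bases with ammonium and 548 with water. The first peak began at a median of base 222.5 with ammonium and 246 with water, whereas the single shared peaks of other transcripts began at medians of 393 and 396. In several-peak transcripts that failed the rule, the first peak began at medians of 344 with ammonium and 348 with water. Whether the number of peaks bears on the first start was not tested. The length and the coding part of the IDs were not analysed here, so these positions were not placed relative to start or stop codons.

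Single peaks of members were narrower than single shared peaks elsewhere, while the covered stretch per transcript was longer. Peak width had a median of 200 bases with ammonium and 191.5 with water in members, and of 245 and 201 in transcripts with a single shared peak. Summed over a transcript, peaks covered a median of 441 bases with ammonium and 398 with water in members, against 245 and 201. In several-peak transcripts that failed the rule, the median width was 193 bases with ammonium and 150 with water. Their peaks covered a median of 342 and 347 bases, so neither trait is particular to members. A sum over several peaks is also larger by its making.

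A few members had sites far apart. Transcript pp_135578 had the longest span, 7005 bases, with peaks at bases 100 to 249 and 6657 to 7104 that had the same edges in both lists. Its upstream peak was listed at 9.62-fold with ammonium and 17.6-fold with water, and its downstream peak at 47.9-fold with ammonium and 32.2-fold with water. At the other extreme, the 2 peaks of pp_204452 in the water list were 90 bases apart and formed 1 peak of 275 bases with ammonium. In pp_164457 the peaks were 91 bases apart and stayed separate in both lists, at 22.0- and 43.5-fold with ammonium and 11.8- and 24.3-fold with water.

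Fold enrichment is the authors' deposited value for IP against input at a peak, with 1 value per treatment and no replicates. How it was computed is not given. The 19 members without an input read also have finite folds, so it is not a plain ratio of reads. Over all peaks, weaker ones included, the listed fold was lower in members than in transcripts with a single shared peak. The medians were 10.0 with ammonium and 9.24 with water, against 20 and 17.7. Among the several-peak transcripts that failed the rule the medians were 8 with ammonium and 7 with water. Taking only the strongest peak of each transcript, members had medians of 17.6 with ammonium and 17.55 with water. These compare with 20 and 17.7 in transcripts with a single shared peak, and with 14.9 and 13 in transcripts that failed the rule.

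Enrichment at a site was close in the 2 treatments. At the 509 sites with 1 peak in each list, the median log2 ratio of the ammonium fold to the water fold was 0.03, 5% of the sites were below -0.93 and 5% above 0.96, and 462 (90.8%) were within 2-fold. There were 22 sites over 2-fold higher with ammonium and 25 over 2-fold lower. Across these sites log2 folds correlated at r = 0.930 and folds at rho = 0.915. This is a description over sites, which share libraries and, in part, transcripts. In 277 of the 509 (54.4%) both edges were the same. The 4343 single shared peaks gave similar values, with a median log2 ratio of 0.11, 91.3% within 2-fold, r = 0.944 and the same edges in 52.3%. The list with the unbroken peak tended to have the higher fold. Sites unbroken with ammonium had a median log2 ratio of 0.27, with a higher ammonium fold at 73 of 109, and sites unbroken with water had a median of -0.18, with a higher ammonium fold at 12 of 40.

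**Figure D2:**
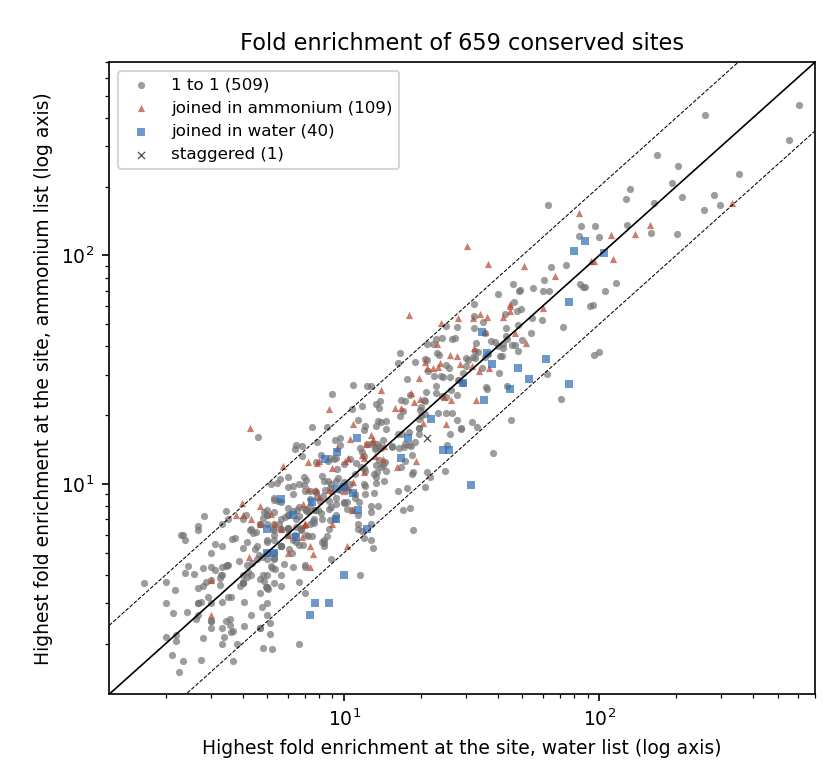
Highest listed fold enrichment of each of the 659 sites with ammonium (vertical, log axis) against water (horizontal, log axis), by how the peaks of the 2 lists matched. The solid line marks equal folds and the dashed lines a 2-fold difference. Of the 509 sites with 1 peak in each list, 462 lie between the dashed lines.

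The order of strength along a transcript was mostly the same after both treatments. In 358 of 386 members (92.7%) the strongest ammonium peak overlapped the strongest water peak. A single unbroken site meets this by construction, and with 2 or more peaks required in both lists the share was 89.1% of 258. Among the 245 transcripts with 2 sites, the same site was the stronger in both lists in 216 (88.2%), the upstream one in 122 and the downstream one in 94. The stronger site had a median of 2.55 times the fold of the weaker with ammonium and 2.41 times with water, and over 4 times in 77 and 73 transcripts. Of the 153 transcripts whose sites were over 2-fold apart with ammonium, 149 had the same stronger site with water.

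Ranked by the lower of their highest folds in the 2 lists, the first 4 members had a dominant site. In pp_165741 the peak at bases 966 to 1159 was listed at 454-fold with ammonium, and the water peak at bases 966 to 1208 at 608-fold, while the upstream peak had 11.1- and 18.5-fold. In pp_212250 the peak at bases 1543 to 1892 had 319-fold with ammonium and 557-fold with water, against 30.7- and 40.3-fold at its downstream site. Transcript pp_92167 had 414-fold with ammonium and 260-fold with water upstream, and 74.7- and 83.8-fold downstream. In pp_195861 the downstream site was the stronger, at 228-fold with ammonium and 352-fold with water, against 14.6- and 15.4-fold upstream. The site order was thus the same with both treatments in all 4, while the fold at the dominant site was higher with ammonium in pp_92167 and lower in the other 3.

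Summed over its peaks, the fold of a member was over 2-fold higher with ammonium in 12 transcripts and over 2-fold lower in 14. The largest excess with ammonium was in pp_82624, with folds of 7.25 and 6.00 with ammonium against 2.83 and 2.33 with water, where levels in the IP were low (1.46, 1.35 and 3.10 CPM with ammonium, against 1.46, 1.55 and 0.828 CPM with water). CPM is the count per 1e6 reads of the library, without correction for transcript length. The next was pp_214815, with folds of 10.7 and 167 with ammonium against 6.98 and 62.9 with water. It had 108, 111 and 113 CPM in the ammonium IP, against 73.2, 85.6 and 75.7 CPM in the water IP. Here the IP libraries of the treatments did not overlap, and in the input the levels were 64.5, 72.6 and 75.6 CPM with ammonium, against 61.0, 58 and 64.4 CPM with water. The largest deficits with ammonium, in pp_72651 and pp_75437, were in transcripts with 1 ammonium and 2 water peaks, where a sum over more peaks is larger by its making. The ammonium fold of pp_72651 was 4.91, against 7.57 and 5.33 with water, and that of pp_75437 was 4.33, against 7.33 and 3.33 with water.

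Members near the edge of the rule had little overlap. The shortest overlaps that kept a transcript in were of 1 base, in pp_209511 (an ammonium peak ending at base 443 and a water peak starting there) and in pp_230054. The nearest misses, pp_247307 and pp_4122, had a water peak that lay 47 bases from the ammonium peak. In all, 7 of the 813 overlapping pairs of peaks shared under 50 bases. The largest differences in peak number were 1 against 3, with ammonium first, in pp_102533 (a 900-base ammonium peak of 13.4-fold over water peaks of 7.00-, 11.7- and 6.18-fold) and in pp_193375 (6.67-fold over 2.20-, 4.25- and 4.67-fold).

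The members ranged from undetected to abundant in the input. Mean input levels ran from 0 to 387.5 CPM with a median of 12.8 and quartiles of 1.12 and 35.1 CPM, and all 386 had reads in each of the 6 IP libraries. The most abundant were pp_206119, with 412, 374 and 354 CPM in the ammonium input and 384, 430 and 371 CPM in the water input, and pp_181106, with 215, 208 and 200 CPM with ammonium and 215, 238 and 214 CPM with water. In the root as a whole, fewer cells of a type and less RNA per cell cannot be told apart.

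Together the members took 2.20% ± 0.0433 of IP reads with ammonium and 2.24% ± 0.340 with water (SD, n = 3 each), and 0.998% ± 0.00808 of input reads with ammonium and 0.987% ± 0.00854 with water (SD, n = 3 each). The ammonium IP libraries had 2.24, 2.21 and 2.15%, all between the lowest and the highest of the water IP libraries at 1.99, 2.63 and 2.12%. The IP shares differed by -0.04 percentage points, ammonium minus water (p = 1, two-sided exact permutation test), and by 0.15 without replicate 2 of the water IP. Without replicate 1 of the water IP the difference was -0.17. For the inputs the difference was 0.01 percentage points (p = 0.3, two-sided exact permutation test). With 3 libraries on each side such a test cannot go below 0.1.

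**Figure D3:**
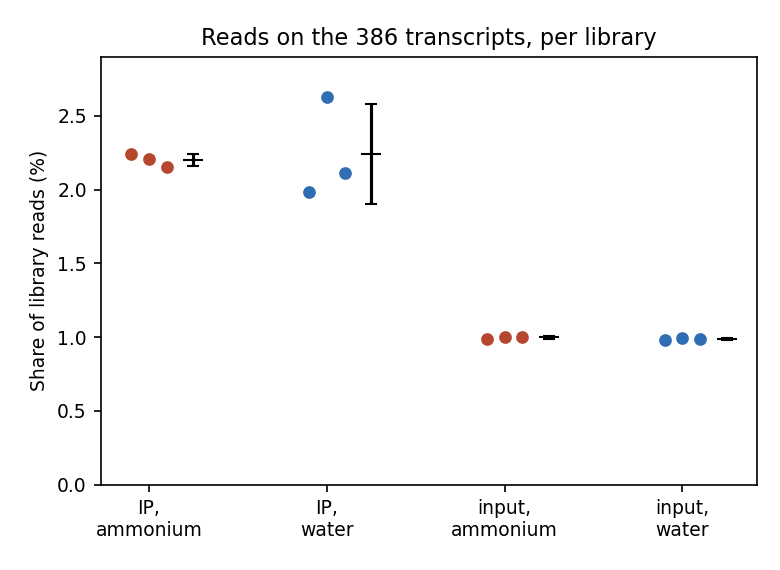
Share of each library's reads on the 386 transcripts, in percent, with 1 point per library (red ammonium, blue water) and the mean and SD of 3 libraries beside the points. The inputs lie close to 1%, and in the water IP replicate 2, at 2.63%, lies above the other 2 libraries.

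The high share in replicate 2 of the water IP came from few transcripts. In this library 39 members were over 1.5 times as high as in both other water IP libraries, and these took 0.893% of its reads, against 0.307% in replicate 1 and 0.352% in replicate 3. The other 347 members took 1.74% in replicate 2, against 1.68% and 1.76%. The 39 were picked by this very difference, which is therefore only described. The same margin was passed by 42 members in replicate 3 of the ammonium IP, by 18 in replicate 3 of the water IP and by 2 to 10 in each of the other 3 IP libraries. Several transcripts rich in peaks were among those raised in replicate 2 of the water IP. Transcript pp_202250 had 458, 591 and 558 CPM in the ammonium IP, against 609, 1757 and 490 CPM in the water IP. Transcript pp_145127 had 524, 805 and 476 CPM with ammonium, against 579, 1705 and 715 CPM with water. Transcript pp_83564 had 2.85, 4.03 and 4.41 CPM with ammonium, against 2.94, 11.8 and 4.83 CPM with water. In each of the 3, replicate 2 of the water IP was the highest IP library and the other libraries of the treatments overlapped.

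Over the whole transcript, members were higher in the IP than in the input. With 0.1 CPM added, the median log2 ratio of IP to input was 1.49 with ammonium and 1.35 with water, where transcripts with a single shared peak had 1.44 and 1.32. Without those that missed the count filter of the input, and are high in the IP alone, the medians were 1.13 with ammonium and 1.00 with water in 320 members, and 1.13 and 1.03 in 3793 transcripts with a single shared peak. The water median of all members was 1.45 without replicate 1 and 1.31 without replicate 2 of the water IP. With all libraries kept, several-peak transcripts that failed the rule had medians of 1.74 with ammonium and 1.76 with water. Over all 148273 transcripts that passed the count filter of all 12 libraries, the medians were -0.82 with ammonium and -0.55 with water. The IP and input libraries did not overlap, with the IP higher, in 296 members with ammonium (34.5% of all transcripts tested) and in 277 with water (34.0%). The input was higher without overlap in 48 members with ammonium (51.2% of all) and in 52 with water (45.5%). Without replicate 1 of the water IP the counts with water were 285 (35.3% of all) and 58 (51.7%). They were 281 (35.5%) and 55 (46.5%) without replicate 2. Peak calls came from the same libraries, so nothing is read from these counts.

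A peak did not require a transcript to be enriched as a whole. In 67 members the IP level was below the input level in both treatments, in 305 it was above in both, and in 14 it had opposite signs. These numbers were 66, 307 and 13 without replicate 1 of the water IP, and 63, 302 and 21 without replicate 2. The 67 had peaks with a median highest fold of 13.3 with ammonium and 12.3 with water, and their median input level was 37.5 CPM, against 8.46 CPM in the 305. The lowest ratios were those of pp_72847, with 8.48, 9.05 and 7.46 CPM in the ammonium IP against 25.4, 28.9 and 29.9 CPM in the ammonium input, and pp_85319, with 9.36, 8.13 and 9.38 CPM against 29.4, 33.9 and 36.6 CPM. With water, pp_72847 had 8.44, 7.00 and 5.78 CPM in the IP against 30.8, 25.6 and 31.4 CPM in the input. With 0.1 CPM added the highest ratio was that of pp_78820, with 230, 185 and 353 CPM in the ammonium IP against 0.369, 0.485 and 0.376 CPM in the ammonium input. With water this transcript had 269, 235 and 374 CPM in the IP against 0.405, 0.225 and 0.333 CPM in the input.

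The ratio of IP to input was lower in members with higher input levels. Across the 386 transcripts its Spearman correlation with mean input CPM was -0.737 with ammonium and -0.746 with water, and -0.568 and -0.586 among the 320 that passed the input filter. The input enters both axes, so part of this is set by construction. The fold at the strongest peak was not ordered in the same way. Its correlation with the ratio of the whole transcript was -0.02 with ammonium and 0.04 with water, and 0.233 and 0.263 among the 320 members that passed the input filter. Its correlation with input level was 0.390 with ammonium and 0.349 with water, and 0.262 and 0.242 among the 320. In the 97 members with the highest input levels the median log2 ratio was 0.34 with ammonium and 0.20 with water, while the median highest fold was 33.4 and 26.6. In the 97 with the lowest input levels the median log2 ratio was 4.69 and 4.95, and the median highest fold 9.50 and 10.3. With 0.1 CPM added, the ratio of the whole transcript had rho = 0.990 between treatments across members, and 4 of 386 were further apart than 2-fold. The edgeR fit does not add this 0.1 CPM, but its values stay finite for members without an input read. In it, 37 of 386 were further apart than 2-fold between treatments, of which 2 had passed the input filter.

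**Figure D4:**
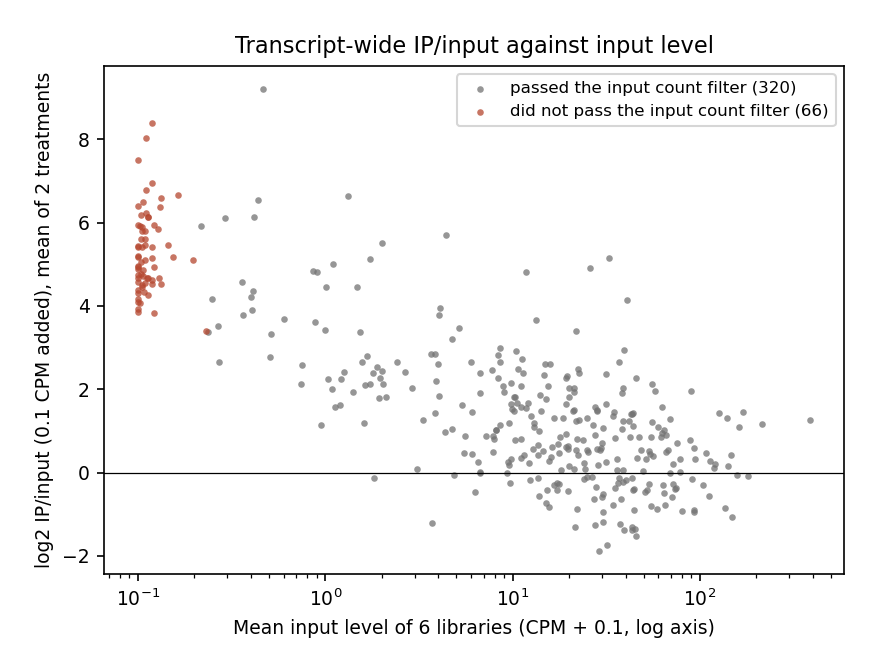
Log2 ratio of IP to input over the whole transcript, mean of the 2 treatments with 0.1 CPM added, against the mean level in the 6 inputs (CPM + 0.1, log axis), with 1 point per member. The 66 members that did not pass the input count filter (red) lie at the left, and members below the zero line are among those with higher input levels.

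A group of members was nearly absent from the input. The input count filter was missed by 66 members (17.1%), against 12.7% of transcripts with a single shared peak and 22.5% of several-peak transcripts that failed the rule. Of these 66, 54 had fewer than 10 input reads in the 6 libraries together, and 19 had none while holding 527 to 6945 IP reads. Set against a floor of 3 counts over the 6 inputs, these 19 were at least 209- to 2751-fold higher in the IP. The highest bounds, at least 2751-fold for pp_59646, 1265-fold for pp_146176 and 950-fold for pp_75389, lay above the ratio of pp_78820, so the ranking by ratio depends on the floor. The listed folds of the 66 were lower, with a median highest fold of 7.84 with ammonium and 9.67 with water, against 21.5 and 19.9 in the other 320. Their IP levels were lower too, with medians of 3.55 CPM with ammonium and 4.02 with water, against 34.0 and 34.4. How the lists treat an absent input is not given, so these folds do not rank the strength of their peaks. Among those with no input read, pp_113021 had 2.67, 3.18 and 6.32 CPM in the ammonium IP and 3.18, 3.55 and 6.58 CPM in the water IP. Transcript pp_108009 had 3.26, 2.66 and 3.36 CPM with ammonium and 2.85, 2.36 and 3.64 CPM with water. Transcript pp_141133 had 34.8, 25.0 and 53.4 IP CPM with ammonium and 42.3, 31.8 and 49.4 with water, and 9 reads in all inputs. The IP levels of the treatments overlapped in each of these 3.

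The input comparison between treatments did not use the peaks and asks whether members changed in abundance with ammonium. None of the 320 members that passed the filter was called in edgeR's quasi-likelihood test at a Benjamini-Hochberg adjusted p under 0.05, where 0.424% of all 114887 transcripts tested were called. An unadjusted p under 0.05 was reached by 25 members (7.81%), 20 of them higher with ammonium, against 10.4% of all transcripts. This number was 10 (3.12%, against 6.64% of all) without replicate 1 of the water input. It was 13 (4.04%, against 7.15%) without replicate 2 of the ammonium input and 43 (13.4%, against 15.3%) without its replicate 1. Most were not on the higher side in every fit, with 8 of 18 higher without replicate 3 of the water input and 16 of 33 without the filter. DESeq2 called 1 member, where it called 2.47% of all transcripts. Members had a median log2 fold change of 0.05, against 0.04 in transcripts with a single shared peak and 0.00 for all transcripts tested. Of the 320, 316 (98.8%) were within 2-fold, against 94.6% of all. The standard error had a median of 0.12 on the log2 scale in members and 0.28 over all transcripts tested. The shares within 2-fold thus compare transcripts measured with unlike precision. The libraries of the treatments did not overlap in 25 members higher with ammonium (6.92% of all transcripts) and in 24 lower (8.90%), shares of 7.81% and 7.5%.

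The smallest p in the input was that of pp_214936, with 142, 221 and 170 CPM with ammonium, against 111, 125 and 113 CPM with water. All 3 ammonium libraries lay above all 3 water libraries, and the log2 fold change was 0.66 (SE 0.16, edgeR adjusted p = 0.145). This was the member called by DESeq2 (adjusted p = 0.0257), and its adjusted p ran from 0.0178 to 0.556 over the alternative fits. In the IP its levels overlapped, at 179, 202 and 183 CPM with ammonium and 252, 150 and 192 CPM with water. The smallest p on the lower side was that of pp_233359, with 5.89, 3.92 and 4.29 CPM with ammonium, against 7.37, 6.78 and 7.49 CPM with water (log2 fold change -0.56, SE 0.17, edgeR adjusted p = 0.233). In this edgeR test neither member, nor any other of the 320, passed the threshold.

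In the IP no member was called by edgeR among 386 tested, and none of all 99846 transcripts tested was called (0%). DESeq2 also called no member, and 0.284% of all transcripts. An unadjusted p under 0.05 was reached by 79 members (20.5%), 77 of them higher with ammonium, against 10.4% of all transcripts. It was reached by 34 (8.81%, against 5.37% of all) without replicate 1 of the ammonium IP and by 49 (12.7%, against 5.32%) without replicate 3. With a replicate block it was reached by 46 (11.9%, against 7.35%). The median log2 fold change was 0.25 in members, 0.27 in transcripts with a single shared peak and -0.23 in all transcripts tested, and 284 members (73.6%) were above 0. All 386 were within 2-fold, against 83% of all transcripts, but the median standard error was 0.22 in members and 0.56 over all transcripts tested. The treatments did not overlap in 45 members higher with ammonium (4.45% of all) and in 17 lower (11.3%). With 2 water IP libraries the shares of all transcripts rose too. The counts were 58 (8.14% of all) and 40 (17.2%) without replicate 1, and 74 (8.54%) and 38 (27.4%) without replicate 2. The rule required peaks in both treatments, so these shares describe the chosen transcripts. When replicate 1 of the water IP was left out, members had a median of 0.15 and all transcripts had one of -0.16. An unadjusted p under 0.05 was then reached by 64 members (16.6%, against 8.36% of all). Without replicate 2 of the water IP the medians were 0.29 and -0.07, and the number was 90 (23.3%, against 18.9%).

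The member with the smallest p in the IP was pp_78626, with 430, 352 and 469 CPM with ammonium, against 259, 294 and 275 CPM with water. The groups did not overlap, and the log2 fold change was 0.81 (SE 0.18, edgeR adjusted p = 0.464). Its input levels were 125, 131 and 152 CPM with ammonium, against 117, 113 and 121 CPM with water. On the lower side pp_95801 had 36.9, 45.8 and 53.9 CPM with ammonium, against 66.9, 128 and 66.1 CPM with water (log2 fold change -0.74, SE 0.28, edgeR adjusted p = 0.466). These groups did not overlap either, and replicate 2 of the water IP was again the highest library.

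The IP/input ratio, which sets the IP against the abundance of the transcript, was called different between treatments in no member by edgeR, nor in any of 148273 transcripts tested (0%). DESeq2 called no member, and 0.0560% of all transcripts. An unadjusted p under 0.05 was reached by 84 members (21.8%), 79 of them with a higher ratio after ammonium, against 8.84% of all transcripts. With RLE scaling it was reached by 11 members (2.85%), against 7.66% of all, and with DESeq2 by 14 (3.63%), against 9.89%, so the share of members was below that of all transcripts in these fits. The median log2 change of the ratio was 0.34 in members, 0.36 in the 320 that passed the input filter, 0.35 in transcripts with a single shared peak and -0.22 in all transcripts tested. It was above 0 in 311 members (80.6%). Members were chosen for peaks of IP over input in both treatments, so these shares and medians describe the chosen transcripts only. When replicate 1 of the water IP was left out, members had a median of 0.18 and all transcripts had one of -0.01. An unadjusted p under 0.05 was then reached by 31 members (8.03%, against 6.96% of all). This number was 95 (24.6%, against 17.9%) without replicate 2 of the water IP and 118 (30.6%, against 12.6%) without replicate 3. It was 47 (12.2%, against 6.80%) without replicate 1 of the ammonium IP. The median of members was 0.44 without replicate 3 of the water IP and 0.39 without replicate 2.

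For single members the ratio had a median standard error of 0.28 on the log2 scale. The smallest p with a higher ratio was that of pp_208757, with 59.6, 48.2 and 60.4 CPM in the ammonium IP, against 47.3, 44.6 and 43.3 CPM in the water IP, and 13.4, 12.8 and 13.9 CPM in the ammonium input, against 14.5, 14.1 and 14.4 CPM in the water input. The IP was higher and the input lower with ammonium in all libraries, and the log2 change was 0.69 (SE 0.19, edgeR adjusted p = 0.556). With a lower ratio, pp_188848 had 8.17, 9.56 and 9.57 CPM in the ammonium IP, against 18.5, 9.64 and 27.0 CPM in the water IP. Its input levels were 6.08, 3.16 and 1.3 CPM with ammonium, against 1.62, 1.91 and 1.2 CPM with water (log2 change -1.92, SE 0.66, edgeR adjusted p = 0.556). Its input levels overlapped between treatments and its IP levels did not, by a narrow margin.

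**Figure D5:**
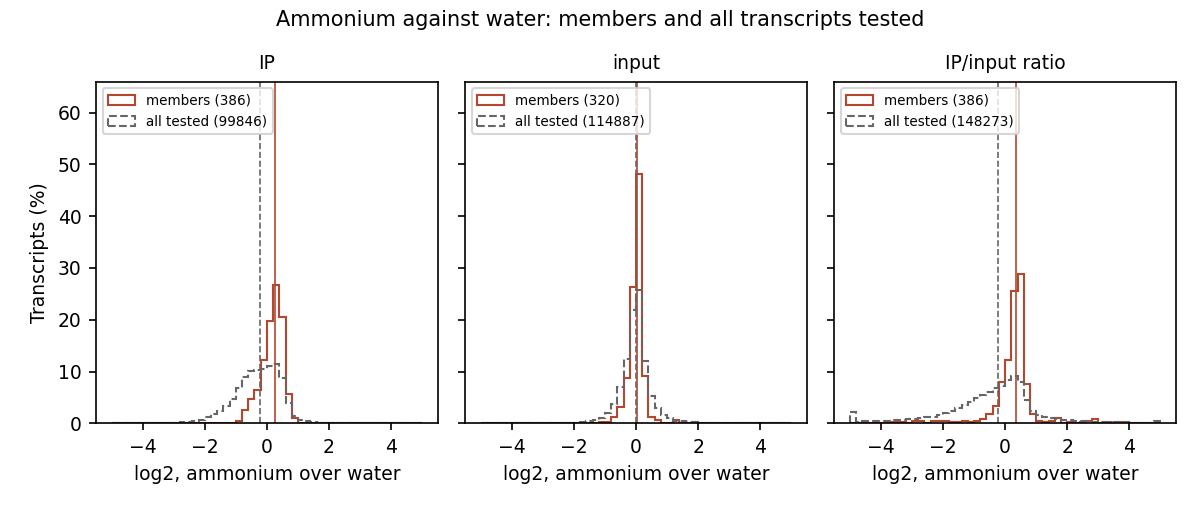
Distribution of fitted log2 fold changes, ammonium over water, in the IP, in the input and for the IP/input ratio, as percent of transcripts in bins, for members (solid red) and all transcripts tested (dashed grey), with values beyond 5 in the end bins. Vertical lines are medians: 0.25 for members and -0.23 for all in the IP, 0.05 and 0.00 in the input, 0.34 and -0.22 for the ratio.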

How the data were processed

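The authors deposited raw read counts per transcript ID for 12 libraries, and bcl2fastq and BWA were used per the submitters' processing notes. The authors also deposited 1 peak list per treatment, in which, per the file headers and values, a p-value and a fold enrichment stand beside each peak. How the fold was computed, and how an absent input was treated in it, is not given. The peak caller, the reference sequences, strandedness and the counting of reads shared by similar transcripts are not given in the sources used. Transcript IDs that share sequence could share reads. The members and lists were chosen with earlier results of these data known. Members were found from peak positions (overlap of at least 1 base), and sites are chains of overlapping peaks of both lists. Counts were tested over all transcripts with edgeR 4.0.16 in R 4.3.3 (TMM scaling, filterByExpr with minimum count 10 and minimum total 15, robust quasi-likelihood F test, two-sided, Benjamini-Hochberg adjustment, calls at 0.05), within the 6 libraries of the IP or of the input, or as the interaction over 12 libraries. The code was tested on simulated data. SE is the standard error of a fitted log2 value. DESeq2 1.42.0, RLE scaling, no filter, a replicate block, omission of each library, and stricter peak rules were the alternatives. Limma 3.58.1 was loaded with edgeR. Shares were compared by exact permutation. Pairs of libraries of 1 group differed beyond counting noise (chi-square per degree of freedom of 11.9 to 62.1), so none repeated another of its group. All 12 were kept, and this spread is no mark of their quality. P-values rest on how far replicate libraries varied. Whether each of the 3 libraries in a group came from a different run is not stated in the sources used. No depth is given for single peaks. Transcripts named were the extremes, by fixed rank, of peak number, fold, fold difference, p in each comparison, input level, IP/input ratio, span, gap, overlap and peak number difference. Lists of m6A, ammonium and cell type genes were not tested, since the files do not pair IDs with names.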

Additional observations from a re-analysis of the deposited data

How the results depend on the processing

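In the input, no member was called in the edgeR fit as reported, but 2 were without the filter on low counts (pp_214936 and pp_233359), 1 with DESeq2, 1 with a replicate block (pp_214936, adjusted p = 0.0376), and 0 to 4 when single libraries were left out, with 4 without replicate 1 of the ammonium input. Over all transcripts these settings called 1.2% without the filter, 2.47% with DESeq2, 0.780% with the block and 4.08% without that library, against 0.545%, 0.312%, 0.312% and 1.25% of members. The block gave 0 members in the IP and for the ratio. Between treatments, deviations of libraries with equal numbers correlated at 0.006 to 0.198 in the input and 0.011 to 0.121 in the IP. The highest values with another number were -0.006 to 0.072 and -0.050 to 0.033. The equal number was the higher in input replicates 2 and 3 and IP replicates 1 and 2 only, so pairing of the treatments was not settled. Between IP and input, libraries with equal numbers correlated at 0.132 to 0.193 with ammonium, where every pair was over 0.1 (another number: -0.095 to -0.010). With water they correlated at -0.076 to 0.063 (another number: -0.030 to 0.085). The ratio test took the 12 libraries as 4 groups and did not pair IP with input. Its replicate block was shared by both treatments. In the IP, 7 members were called without the filter, all higher with ammonium (1.81%, against 0.877% of all transcripts), and 0 to 0 when single libraries were left out. The ratio gave 0 members in all 16 alternatives run. The median log2 fold change of members in the input was 0.0304 with RLE scaling, 0.0291 without the filter and 0.00478 to 0.0754 when single libraries were left out. That in the IP kept its sign in the 10 alternatives run (0.15 to 0.31 without single libraries), and that of the ratio was 0.18 to 0.44. The difference in IP share ran from -0.17 to 0.15 percentage points when single libraries were left out, and turned positive (0.15) without replicate 2 of the water IP. The input share difference ran from 0.006 to 0.015. Members numbered 227 with peaks of fold 5 or more, 373 with an overlap of 50% of the shorter peak and 258 with 2 or more peaks in both lists. Over the 813 overlapping pairs of peaks the median log2 fold ratio was 0.13, and with 2 or more peaks in both lists it was 0.0255, with the strongest peak kept in 89.1%. The cause of these changes was not tested. The 258 members with 2 or more sites, an alternative chosen after seeing the data, had medians of 0.23 in the IP and 0.31 for the ratio. With 3 libraries a group and a median standard error of 0.22 in the IP, small changes of single members could not be detected.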

Other observations

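Some members had ID numbers close to each other. There were 8 pairs of members with numbers 5 or fewer apart. In 4 of these the CPM values of the 12 libraries correlated at 0.968 to 0.9998: pp_145127 and pp_145129 (r = 0.9998), pp_75204 and pp_75209 (r = 0.992), pp_235032 and pp_235033 (r = 0.970), and pp_208754 and pp_208757 (r = 0.968). The 12 libraries include IP and input, which separates them, and shared reads between such IDs were not tested. The other 4 pairs had r of -0.10 to -0.86.

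The 13 members with 3 or more sites had a median log2 ratio of IP to input of 2.26 with ammonium and 2.29 with water, and a median input level of 21.2 CPM. The 128 members with 1 site had 1.55 with ammonium and 1.37 with water at 10.1 CPM, and the 258 with 2 or more sites had 1.45 and 1.35 at 14.6 CPM. Of the 13, 5 were among the 39 members raised in replicate 2 of the water IP. These are values of transcripts grouped by their peaks and were not tested.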
